A study of Canis lupus familiaris with 33 samples.

Results

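Relapsed canine diffuse large B-cell lymphoma (DLBCL) was divided by the time that had passed since the dog was last treated. Of the 33 arrays of the series, 23 were of DLBCL and 7 of these were of relapsed tumours. All 7 carried a number of days since the last treatment in their labels, and they fell into 4 arrays under 100 days (short interval) and 3 arrays over 100 days (long interval). The short-interval arrays were sample 24 (13 days, Labrador Retriever, 8 years), sample 9 (32 days, Labrador X, 10.6 years), sample 18 (76 days, Siberian Husky, 10.8 years) and sample 3 (82 days, German Shepard X, 11.8 years). The long-interval arrays were sample 13 (123 days, German Shepherd, 8.7 years), sample 12 (152 days, Labrador Retriever, 6.4 years) and sample 4 (672 days, Whippet, 8 years). Values are given below in this order, from the fewest to the most days within each group. RNA of whole lymph node biopsies was hybridised to Affymetrix canine genome arrays, and the 16 treatment naïve DLBCL arrays and 10 arrays of healthy nodes serve as the background against which the relapsed tumours are set. The naïve dogs were 2.7 to 13.3 years old, and the healthy arrays came from 7 dogs, 1 of which gave 4 arrays.

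The treatments before relapse were not uniform. CHOP, the combination of cyclophosphamide, doxorubicin (hydroxydaunorubicin), vincristine (Oncovin) and prednisone, was the labelled protocol of samples 24, 3 and 13. Sample 18 had received CHOP followed by lomustine (CCNU), L-asparaginase and prednisone, and sample 9 doxorubicin and prednisone followed by the same rescue combination. Sample 12 had received doxorubicin, cyclophosphamide (Cytoxan) and prednisone, and the protocol of sample 4 was labelled only GS. L-asparaginase was therefore named in 2 short-interval samples and in no long-interval sample, so that interval and rescue treatment cannot be told apart for these. Sample 3 was the 1 relapsed sample with a current medication, tramadol. The 7 relapsed arrays came from different dogs, and sample 12 came from the same dog as treatment naïve sample 11.

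DLBCL is a tumour of mature B cells that grows from or resembles cells of the germinal centre and its descendants. CHOP acts mainly on dividing cells: doxorubicin blocks topoisomerase II, vincristine binds tubulin and cyclophosphamide and lomustine alkylate DNA, while prednisone kills lymphocytes through the glucocorticoid receptor and L-asparaginase depletes asparagine, which cells can replace through asparagine synthetase. A tumour that returns soon after treatment is commonly regarded as drug resistant. The comparison of intervals asks which transcripts differ between tumours sampled soon and late after therapy.

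The nodes were B-cell rich in both groups. CD79A, a subunit of the B-cell receptor, was at 13.16, 13.06, 12.87 and 13.00 in short-interval arrays and at 13.30, 13.14 and 13.25 in long-interval arrays (log2 expression values). MS4A1, which encodes CD20, was at 13.00, 13.63, 13.86 and 12.88 in short-interval arrays and 13.12, 13.19 and 13.25 in long-interval arrays. Both genes reached lower values in healthy nodes, 11.55 to 12.74 for CD79A and 11.49 to 12.65 for MS4A1. The mean of 16 B-cell genes was 10.98 ± 0.16 (SD, n = 4) at short and 10.95 ± 0.17 (SD, n = 3) at long intervals. Biopsies are mixtures, and in all that follows fewer cells of a type and less RNA per cell cannot be told apart.

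Samples 24 and 18 of the short-interval group and sample 4 of the long-interval group stood apart from the other relapsed tumours. In sample 24, 50 genes lay more than 1 log2 unit above the highest treatment naïve array, and 23 of these belonged to a list of 28 skeletal muscle genes. The muscle list had a mean of 10.60, 6.49, 7.15 and 6.39 in short-interval arrays, 6.64, 6.54 and 8.53 in long-interval arrays and 6.08 to 6.69 in naïve arrays. MYL2, a myosin light chain of slow muscle, was at 13.33 in sample 24 and 9.68 in sample 4, against 4.46 to 5.15 in naïve tumours. Sample 4 also carried skin and hair follicle transcripts, with a mean over 25 such genes of 8.02 against 5.06 to 5.67 in the other relapsed arrays. KRT33B, a keratin of hair, was at 10.26 there and at 2.96 to 3.45 in the other relapsed arrays. Sample 18 showed neither pattern as strongly, but of the relapsed arrays it differed from naïve tumours at the most genes. In it 139 genes lay above and 34 below by over 1 log2 unit. A naïve array set against the other 15 had a median of 9.5 above (range 2 to 314) and 5.0 below (range 1 to 148). The counts of samples 24, 18 and 4 were thus within the range of single naïve arrays. These 3 lists of muscle, skin and fat genes were drawn up after the values had been seen.

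**Figure D1:**
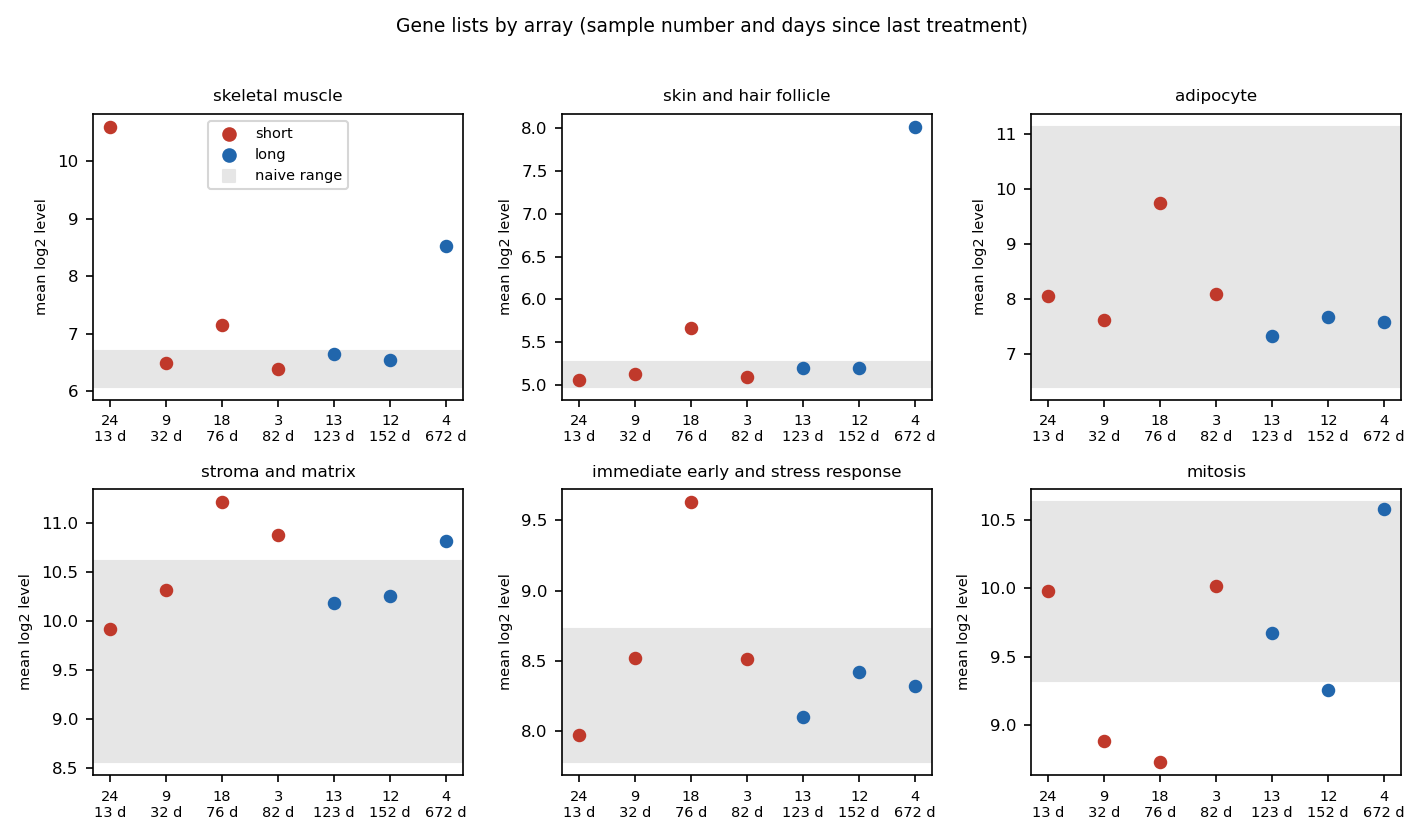
Mean log2 level of 6 gene lists in each relapsed array, with short-interval arrays left of long-interval arrays, ordered by days, and the range of 16 naïve arrays as a grey band. Sample 24 is highest for skeletal muscle (10.60), sample 4 for skin and hair follicle (8.02), and sample 18 for stroma (11.21) and immediate early genes (9.63). For stroma, samples 3 (10.87) and 4 (10.81) also lie above the naïve maximum of 10.61.

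Taken as whole arrays, the intervals did not separate. Across probesets, short-interval arrays correlated with long-interval arrays at 0.962 to 0.986, with each other at 0.955 to 0.980, and long-interval arrays with each other at 0.974 to 0.985. Sample 18 had the lowest correlations with other relapsed arrays, 0.955 to 0.971. On the first principal component of the 23 DLBCL arrays, which held 17.3% of the variance, scores averaged 15.9 ± 47.9 (SD, n = 4) in short-interval and −5.87 ± 21.1 (SD, n = 3) in long-interval arrays (exact permutation test over 35 splits, two-sided p = 0.514). On the second, with 10.2% of the variance, they averaged 26.2 ± 31.1 and 12.3 ± 7.51 (exact permutation test, two-sided p = 0.800). The smallest p that this design can give is 0.0286.

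No probeset passed the test between the intervals. By limma, with Benjamini-Hochberg adjustment, 0 of 43035 probesets were higher (0.0%) and 0 were lower (0.0%) in short-interval tumours at an adjusted p under 0.05, and 1564 (3.63%) had an unadjusted p under 0.05. An unmoderated linear model, after the study's methods, gave 0 adjusted calls and 1659 unadjusted ones. Each group was also set against the naïve tumours in the same fit, with 0 calls for short-interval tumours, 2622 (6.09%) unadjusted, and 0 calls for long-interval tumours, 1119 (2.60%) unadjusted. The precision of the comparison was limited: the 95% interval of a gene's difference extended by a median of 0.42 log2 units to each side, and in 88.9% of genes by less than 1. Without samples 4, 18 and 24, again 0 probesets passed, with 1028 at an unadjusted p under 0.05.

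The 7 values divided without overlap for some genes. Of 15115 named genes, 220 (1.46%) were higher in all 4 short-interval arrays than in all 3 long-interval arrays, and 604 (4.00%) were lower in all of them. For a gene unrelated to the interval, 1 of the 35 splits of the arrays gives such an order in a given direction, a share of 0.0286. The median difference over all genes was −0.03 log2 units, and 563 genes (3.72%) had an unadjusted p under 0.05. Of the genes without overlap, 25 that were higher and 20 that were lower also differed at least 2-fold at a mean level of 5 or more, and the 10 with the smallest unadjusted p in each direction are described next. All 20 had an adjusted p of 1.0 in limma, so that none passed the threshold, and the 95% intervals given with them are not adjusted for the number of genes.

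CHN2, which encodes beta-chimaerin, a diacylglycerol-responsive protein that switches off the GTPase RAC, had the smallest p of the genes that were lower at short intervals. Its log2 level was 7.97, 7.51, 9.32 and 9.93 in short-interval tumours and 12.06, 11.42 and 11.62 in long-interval tumours. The 2 shortest intervals had the lowest levels, under the whole range of naïve tumours (8.10 to 11.92), and the highest short-interval value lay 1.49 log2 units under the lowest long-interval value. The difference was −3.02 (SE 0.70, 95% interval −4.47 to −1.56), an 8.10-fold lower level. All of the other 3 probesets of CHN2 had the same sign, with differences of −3.25, −2.04 and only −0.24. The mean of all its probesets gave −2.14 in place of −3.02. Without samples 4, 18 and 24 the difference of the brightest probeset was also −3.02.

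CYP3A26, a canine cytochrome P450 of the subfamily that metabolises many drugs in liver, was near background in 1 group. It was at 3.80, 3.32, 3.52 and 3.21 in short-interval tumours, close to the tag controls without a canine target (median 3.53), and at 11.07, 8.38 and 8.12 in long-interval tumours. Naïve tumours covered both states: 8 of 16 were under 4 and 3 were over 8, and healthy nodes lay between 6.88 and 10.42. The difference of −5.73 had a wide interval, −9.53 to −1.93, and its size is uncertain because the short-interval values were not above the controls. A further probeset assigned to several CYP3A genes read 7.19, 7.09, 5.03 and 6.29 in short-interval tumours against 10.91, 8.42 and 8.36 in long-interval tumours. Since the genes of this subfamily are alike in sequence, the signal may be shared among them. A second probeset of this kind stayed near the controls, at 3.40 to 3.62 in all 7 arrays (difference −0.04).

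MEIS2, a homeobox transcription factor, was at 9.25, 8.90, 10.19 and 9.58 in short-interval tumours and at 12.06, 12.00 and 10.69 in long-interval tumours. Samples 13 and 12 lay above every naïve tumour, the highest of which was at 11.16, whereas all short-interval samples were within the naïve range. The difference was −2.10 (95% interval −3.61 to −0.60), and the second MEIS2 probeset gave −1.98. CD300A, an inhibitory receptor of leukocytes, was at 6.44, 7.41, 6.95 and 7.18 in short-interval tumours against 8.39, 8.59 and 9.22 in long-interval tumours, a difference of −1.74 (−2.85 to −0.63). Sample 4, at 9.22, was above the highest naïve value of 9.16.

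Of the other genes that were lower at short intervals, TUBB2A, a beta-tubulin, is taken up below with the drug targets. FGD4, an activator of the GTPase CDC42, differed by −1.56, CSRP2, a LIM domain protein of the cytoskeleton, by −1.06, and ELOVL4, which elongates very long chain fatty acids, by −2.34. In ELOVL4 the groups nearly met, at 5.68 in sample 24 of the short-interval group and 5.92 in sample 13 of the long-interval group. SCML4, a polycomb-related protein, differed by −1.14 and ZNF827, a zinc finger protein, by −1.04. ZNF827 was at 8.13, 8.37, 6.62 and 7.17 in short-interval tumours, with samples 18 and 3 under the naïve minimum of 7.54, and was tightly grouped at 8.63, 8.66 and 8.54 in long-interval tumours.

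Among genes higher at short intervals, RAB39A, a small GTPase of vesicle traffic, was at 6.85, 6.06, 6.41 and 6.75 in short-interval tumours and 4.02, 4.44 and 5.61 in long-interval tumours, a difference of 1.83 (0.60 to 3.05). Samples 13 and 12 were below the naïve minimum of 4.64. SMPDL3A, a phosphodiesterase related to acid sphingomyelinase, was at 12.16, 12.70, 13.59 and 13.23 against 11.14, 11.16 and 11.62 in long-interval tumours, and both of its probesets showed the order. SYNGR1, a synaptogyrin of vesicle membranes, differed by 1.47, but 1 of its 4 probesets gave 0.01 and the mean of all of them 0.96. RUBCNL, which acts in the maturation of autophagosomes, differed by 1.40, and by only 0.42 without samples 4, 18 and 24.

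PPIC, cyclophilin C, varied little within its groups, at 11.16 ± 0.17 (SD, n = 4) in short-interval tumours and 10.02 ± 0.26 (SD, n = 3) in long-interval tumours. Its difference was 1.13 (0.01 to 2.26), and the second probeset gave 1.16. ADGRF1, an adhesion G protein-coupled receptor, was at 9.13, 8.80, 8.91 and 9.11 against 7.88, 7.12 and 7.16 in long-interval tumours, with healthy nodes at 8.82 to 11.28. A second of its 5 probesets differed by 1.43 and the others by 0.30, 0.19 and 0.17, and the mean of all 5 gave 0.74 in place of 1.60. LOC490151 differed by 1.61, with 9.53 in sample 24 and 6.69 to 7.58 in the other short-interval tumours. SLC31A2, a copper transporter of intracellular membranes, differed by 1.34 and was highest in the 2 tumours with the fewest days, 9.62 and 9.56. Its second probeset differed by 0.14 with overlapping groups, and the mean of both gave 0.74.

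COX7A1 and AMPD1 are muscle forms of a cytochrome c oxidase subunit and of AMP deaminase. COX7A1 was at 9.77, 8.65, 10.52 and 9.01 in short-interval tumours and at 7.86, 8.32 and 8.55 in long-interval tumours, and AMPD1 at 9.26, 8.11, 7.07 and 6.78 against 6.38, 5.73 and 6.59. Sample 24, with a muscle list mean of 10.60, had the highest AMPD1 value. Sample 4, with a muscle list mean of 8.53, was at 8.55 for COX7A1 and 6.59 for AMPD1, the highest long-interval values. Without samples 4, 18 and 24 the difference was 0.74 for COX7A1 and 1.39 for AMPD1. The part of muscle tissue in these values was not tested.

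**Figure D2:**
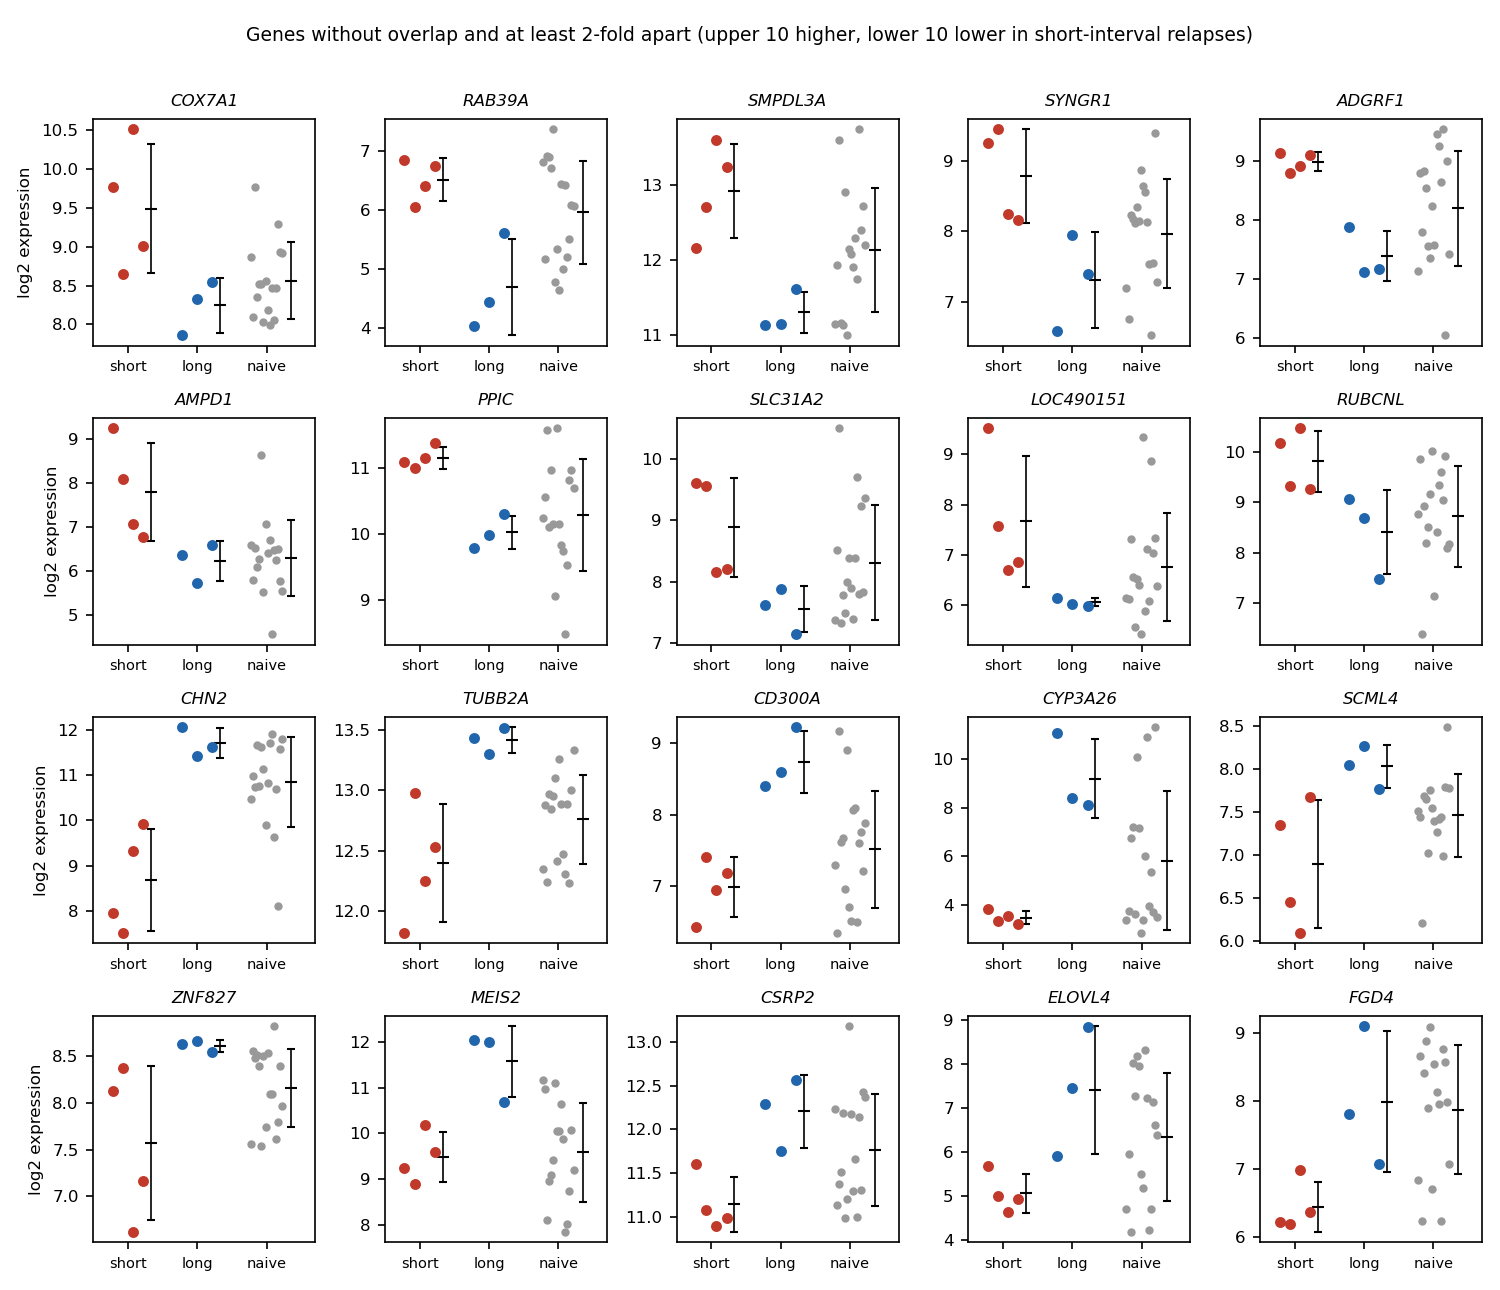
Log2 expression of 20 genes without overlap between the intervals, with short-interval arrays (red, n = 4), long-interval arrays (blue, n = 3) and naïve arrays (grey, n = 16), and bars at mean ± SD. The upper 10 genes were higher and the lower 10 lower in short-interval arrays. CYP3A26 lies at 3.21 to 3.80 in short-interval arrays and 8.12 to 11.07 in long-interval arrays, with naïve arrays on both levels.

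Gene lists are described by their members, for which the background is that over all 15115 genes: 43.2% had a positive difference, 1.46% were higher and 4.00% lower in every short-interval tumour. The members of a list were measured in the same few arrays and are not replicates of an interval. Targets of the drugs named in the labels were examined as a list of 21 genes, of which 16 were measured. None was called in either direction, and 1 was higher and 1 lower without overlap (6.25% each, against 1.46% and 4.00% of all genes). The median difference was −0.11 against −0.03 over all genes, and lay at −0.18 without sample 3 and −0.06 without sample 9. TUBB2A was at 11.82, 12.98, 12.25 and 12.53 in short-interval tumours and 13.44, 13.30 and 13.52 in long-interval tumours. Its difference was −1.02 (95% interval −1.59 to −0.45), the second probeset gave −1.22, and without samples 4, 18 and 24 the difference was −0.61. Sample 24 was under the lowest naïve value of 12.24, and samples 13 and 4 were above the highest, 13.33. The other tubulins were closer: TUBB, TUBB1, TUBB3, TUBA1C and TUBA4A differed by −0.38 to 0.07, with intervals that included 0.

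TOP2A, the topoisomerase that doxorubicin poisons in dividing cells, was at 12.91, 11.72, 11.94 and 13.13 in short-interval tumours and 12.95, 12.29 and 13.47 in long-interval tumours (difference −0.48, −1.16 to 0.20). Samples 9 and 18 were below the naïve minimum of 12.17. These 2 tumours also had the lowest mitosis values of the relapsed group, given below. TOP2B, which is made by resting cells as well, differed by 0.12. MGMT, which removes alkyl groups from guanine, was at 7.62, 6.82, 6.97 and 6.11 against 6.97, 7.63 and 6.30 in long-interval tumours, a difference of −0.09 (−0.94 to 0.76). HSP90AA1, a chaperone of the glucocorticoid receptor, was higher at short intervals without overlap, but only by 0.15 (−0.06 to 0.37).

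ASNS, asparagine synthetase, reached 11.45 in sample 9 and 9.73 in sample 18, the 2 tumours whose labels named L-asparaginase. The other short-interval tumours were at 9.20 and 9.61 and the long-interval tumours at 9.13, 8.36 and 9.43. The groups overlapped (difference 1.02, −0.62 to 2.67), and naïve tumours, which had not had the drug, ranged from 7.53 to 11.75. Of 24 measured genes of drug efflux and metabolism, 0 were higher and 2 lower without overlap, ABCB4 and GSTO1 (8.33%, against 4.00% of all genes), with a median difference of 0.04 that was 0.15 without sample 4. ABCB1, the P-glycoprotein pump that exports doxorubicin and vincristine, was picked out from this list after its values had been seen. It was at 6.66, 7.03, 6.77 and 7.15 in short-interval tumours and 6.45, 7.63 and 5.78 in long-interval tumours, all within the naïve range of 5.07 to 7.82 and below healthy nodes at 9.09 to 10.16. Its difference of 0.28 had an interval of −0.90 to 1.47.

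Genes that glucocorticoids induce or repress gave no common direction. NR3C1, the receptor itself, was at 10.69, 11.19, 11.38 and 10.33 in short-interval tumours and 10.92, 10.76 and 11.17 in long-interval tumours (difference −0.05, −0.75 to 0.64). Of 25 measured members of the list, 14 had a positive difference, 0 were higher and 1 lower without overlap (4.00%, as over all genes), and the median was 0.09, which was −0.09 without sample 18 and 0.27 without sample 9. ZBTB16, a transcription factor induced by the hormone in many cells, was at 7.97, 9.79, 10.21 and 8.25 against 7.07, 7.58 and 8.59 in long-interval tumours, a difference of 1.31 (0.08 to 2.53), with samples 9 and 18 above the naïve maximum of 9.64. TSC22D3, which encodes the glucocorticoid-induced leucine zipper, differed by 0.23 and DUSP1, a MAP kinase phosphatase, by 0.28. FKBP5, another inducible gene, was highest in sample 4, at 12.84, and at 11.46 to 12.28 in the other relapsed tumours. SOCS1, the gene without overlap, differed by −0.24.

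**Figure D3:**
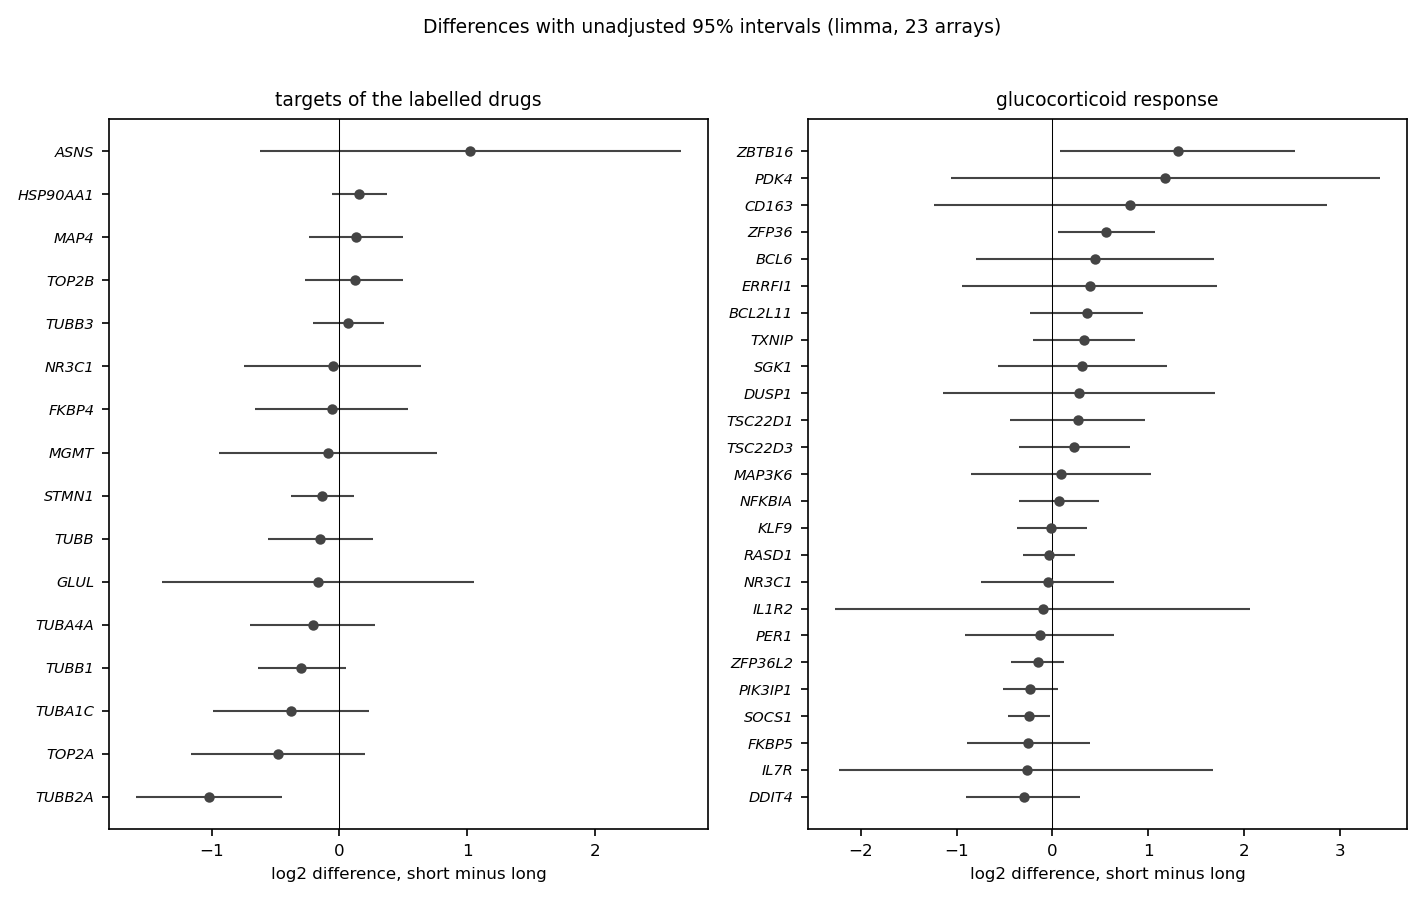
Log2 difference, short minus long interval, of 16 targets of the labelled drugs (left) and 25 glucocorticoid-responsive genes (right), with unadjusted 95% intervals from limma over 23 arrays. The intervals of TUBB2A and SOCS1 lie wholly under 0 and those of ZBTB16 and ZFP36 wholly above it, and none of these genes passed after adjustment.

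Proliferation genes leaned lower at short intervals, and samples 9 and 18 were the lowest. Of 24 measured mitosis genes 1 had a positive difference (4.17%, against 43.2% of all genes), with a median of −0.49, but 0 were without overlap in either direction, where 1.46% of all genes were higher and 4.00% lower. The mean of the list was 9.98, 8.88, 8.73 and 10.02 in short-interval tumours and 9.67, 9.26 and 10.58 in long-interval tumours. Samples 9 and 18, and also the long-interval sample 12, lay under the naïve minimum of 9.32, whereas samples 24 and 3 were near the naïve median of 9.93. CDK1, the kinase that drives entry into mitosis, was at 11.03, 10.20, 9.51 and 10.96 against 10.94, 10.26 and 12.06. BUB1B, of the spindle checkpoint, was at 10.71, 9.67, 8.78 and 10.76 against 10.78, 10.52 and 11.22 (difference −0.86, −1.76 to 0.03). Without sample 4, the long-interval tumour of highest mitosis level, the median difference of the list was −0.06, and without sample 18 it was −0.22.

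DNA replication genes showed the same arrays at the low end, with list means of 10.39, 9.84, 9.48 and 10.22 in short-interval tumours and 10.17, 9.98 and 10.69 in long-interval tumours. Of 33 measured genes 2 had a positive difference and RPA3 was lower without overlap (3.03%, against 4.00% of all genes). The median was −0.28, and it was −0.07 without sample 4 and −0.11 without sample 18. ORC1, of the origin recognition complex, differed by −0.83. Nucleotide synthesis, in which 1 of 18 genes had a positive difference, had a median of −0.20. This was −0.06 without sample 4, −0.08 without sample 18 and 0.03 without samples 4, 18 and 24. The list means overlapped, at 10.72, 10.52, 10.08 and 10.73 in short-interval and 10.63, 10.56 and 11.04 in long-interval tumours. IMPDH2 of guanine nucleotide synthesis was at 13.97, 13.62, 13.19 and 13.57 against 13.86, 14.19 and 14.06. Cholesterol synthesis genes also leaned lower, with 1 of 16 positive and a median of −0.28. The median lay between −0.37 and −0.19 when each relapsed array was left out in turn. The means of this list overlapped, at 9.37, 8.68, 9.04 and 8.79 in short-interval and 9.19, 9.27 and 9.40 in long-interval tumours. SREBF1, a regulator of lipid synthesis, was the 1 gene of the list without overlap (6.25% lower, against 4.00% of all genes). It was at 7.41, 7.42, 7.49 and 7.40 against 7.65, 7.67 and 7.68 in long-interval tumours, a difference of −0.24. In the respiratory chain 0 of 21 genes had a positive difference, against 43.2% of all genes. The median was −0.16, and it was −0.08 without sample 18 and −0.09 without sample 4. The means of this list overlapped, at 12.77, 12.45, 12.38 and 12.72 in short-interval and 12.67, 12.61 and 12.93 in long-interval tumours.

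Cytotoxic effector genes leaned higher at short intervals while T-cell genes leaned lower. Of 13 measured NK and cytotoxic genes 10 had a positive difference (76.9%, against 43.2% of all genes), with a median of 0.36, and GZMA and GZMB, the granzymes of killer cells, were higher without overlap (15.4%, against 1.46%). GZMB was at 9.54, 8.39, 9.34 and 10.19 in short-interval tumours and 7.89, 4.83 and 8.25 in long-interval tumours, a difference of 2.38 with an interval of −0.64 to 5.39, and naïve tumours ranged from 5.03 to 13.19. GZMA was at 8.37, 9.07, 10.45 and 8.57 against 7.88, 7.35 and 7.34. FASLG, the death ligand of the same cells, went the other way, with −0.82 (−1.92 to 0.28). The list median lay between 0.32 and 0.62 when each relapsed array was left out, the highest of these without sample 13. Of 24 T-cell genes 4 had a positive difference, with a median of −0.28, and without sample 12, which had the highest T-cell mean, 8.43 against 7.36 to 7.99 in the other relapsed arrays, the median was −0.03. Without sample 13 it was −0.52.

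Chemokines, immediate early genes and the NF-κB targets had mostly positive differences. These lists share members: CCL4 of the chemokines and IER2 of the immediate early genes are also NF-κB targets. CCL5, a chemokine for T cells, was at 11.17, 10.73, 12.64 and 11.30 in short-interval tumours and 10.33, 9.38 and 10.43 in long-interval tumours, and CCL4 was likewise without overlap. They were the 2 genes of their list that were higher without overlap (7.69%, against 1.46% of all genes), and 0 were lower (against 4.00%). Of 26 inflammatory cytokine and chemokine genes 21 had a positive difference (80.8%, against 43.2% of all genes), with a median of 0.36 that was 0.28 without sample 18, 0.54 without sample 4 and 0.65 without sample 24. The mean of 20 macrophage and monocyte genes was 9.13, 9.53, 10.71 and 10.23 in short-interval tumours and 9.46, 9.40 and 9.99 in long-interval tumours, with 15 positive differences and a median of 0.26, which was 0.03 without sample 18. Their part in the chemokine values was not tested. Of 22 immediate early and stress genes 20 had a positive difference (90.9%), with a median of 0.47, which was 0.08 without sample 18. In that sample the list mean was 9.63, above the naïve maximum of 8.73, against 7.97, 8.52 and 8.51 in the other short-interval tumours and 8.10, 8.42 and 8.32 in long-interval tumours. FOSB was at 8.29 and JUNB at 8.62 in sample 18, both above every naïve tumour.

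NF-κB is a family of transcription factors that drives survival and inflammatory genes in B cells and in many DLBCL. Of 120 published NF-κB targets 99 were measured. None was called, 7 were higher and 0 lower in every short-interval tumour (7.07% and 0%, against 1.46% and 4.00% of all genes), and 68 had a positive difference (68.7%, against 43.2%), with a median of 0.14. Without sample 18 the median was 0.07. The 7 genes were BIRC2, CCL4, CD36, CD83, IER2, RELB and SOCS2, and they differed in size. RELB, a subunit of the alternative pathway, was at 8.26, 7.88, 7.89 and 7.71 in short-interval tumours and 7.61, 7.66 and 7.52 in long-interval tumours (difference 0.33, −0.11 to 0.78), while BIRC2, an inhibitor of apoptosis, differed by 0.14. CD83, a surface marker of activated antigen-presenting cells, was at 10.56, 9.72, 10.63 and 9.68 against 9.03, 9.13 and 9.27 (95% interval of the difference −0.16 to 2.16). CD82, a tetraspanin, had the smallest p of the list, with 10.12, 10.21, 10.74 and 9.78 against 9.83, 9.68 and 8.07. CD36 belongs also to the fat genes, a list drawn up after the values had been seen. The mean of the fat genes was 8.05, 7.61, 9.75 and 8.09 in short-interval tumours and 7.33, 7.67 and 7.59 in long-interval tumours. All of these lay within the naïve range of 6.41 to 11.13. Of 18 measured fat genes 17 had a positive difference (94.4%, against 43.2%). CIDEC, PCK1, GPD1 and CD36 were higher without overlap (22.2%, against 1.46%), and 0 were lower. Because the list was drawn up from these values, its shares are no test against all genes. The median was 0.85, which was 0.33 without sample 18 and 0.20 without samples 4, 18 and 24. The part of fat tissue in the CD36 values was not tested.

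Several groups differed little. B-cell genes had a median of 0.03, B-cell receptor and PI3K signalling −0.02, germinal centre genes −0.02, chromatin regulators of lymphoma 0.03, p53 targets −0.01 and apoptosis regulators 0.05. Of 25 measured apoptosis regulators 2 were higher without overlap, MCL1 and BIRC2 (8.00%, against 1.46% of all genes). BMF was the 1 lower gene (4.00%, as over all genes). MCL1, which protects B cells from death, was at 13.00, 13.11, 13.17 and 13.10 against 12.99, 12.66 and 13.00, where the nearest arrays were equal after rounding. BMF, which promotes death, was at 6.54, 6.74, 6.77 and 6.63 against 6.80 at the lowest in long-interval tumours. The differences of MCL1 and BMF were 0.21 and −0.23. MDM2, the p53 target that limits p53, differed by 0.44 (0.05 to 0.82). ALAS2 of haem synthesis, a red cell gene, was at 7.03, 7.70, 5.66 and 6.50 against 5.25, 5.46 and 6.09, with samples 24 and 9 above the naïve maximum of 6.55.

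**Figure D4:**
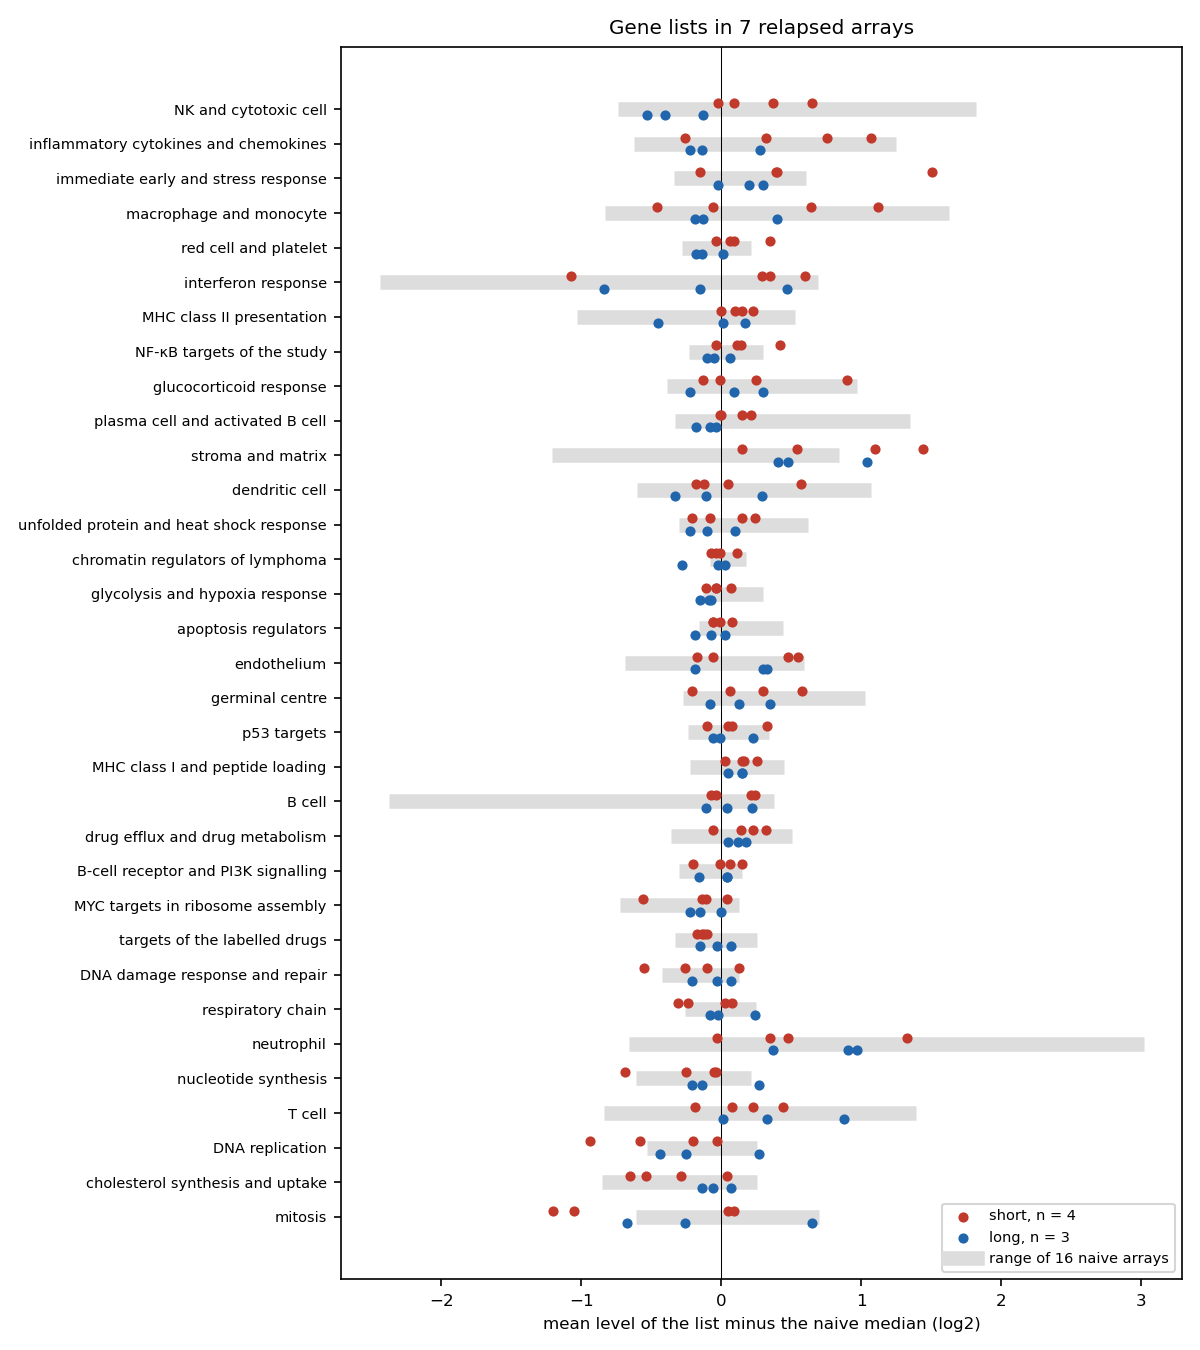
Mean log2 level of 33 gene lists in each short-interval (red, upper) and long-interval (blue, lower) array, minus the median of 16 naïve arrays, whose range is the grey bar. Short-interval samples 9 and 18 and long-interval sample 12 are left of the naïve range for mitosis (8.88, 8.73 and 9.26). Sample 18 is right of the naïve range for immediate early genes (9.63). For NK and cytotoxic cell genes the groups do not overlap, at 7.44 to 8.11 in short-interval and 6.93 to 7.33 in long-interval arrays. The same holds for plasma cell and activated B cell genes, at 9.30 to 9.52 in short-interval and 9.13 to 9.27 in long-interval arrays.

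The number of days itself was also used in place of the split, on a log2 scale over the 7 relapsed tumours. No probeset passed, with 0 rising (0.0%) and 0 falling (0.0%) per doubling of days, and 2376 (5.52%) had an unadjusted p under 0.05 in limma. PHYHD1, a dioxygenase of unsettled function, had the smallest p and was in strict order of days, at 8.97, 8.46, 8.25 and 8.23 in short-interval and 8.01, 7.93 and 7.36 in long-interval tumours. Its slope was −0.28 log2 units per doubling of days (SE 0.03, adjusted p = 0.88). SLC31A2 had a slope of −0.49 (SE 0.07), and SEMA6A, a semaphorin, of −0.24 (SE 0.03), with ZNF660 and NOXRED1 next. In the other direction ARF6, a GTPase of membrane recycling, was at 7.91, 8.16, 8.49 and 8.52 in short-interval and 8.89, 8.52 and 9.32 in long-interval tumours, with a slope of 0.25 (SE 0.04). NCS1, ATP6V1C2, LOC490994 and LOC607396 followed, and in each of these sample 4 lay above the naïve range. All 10 genes had an adjusted p of 0.88 in limma.

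**Figure D5:**
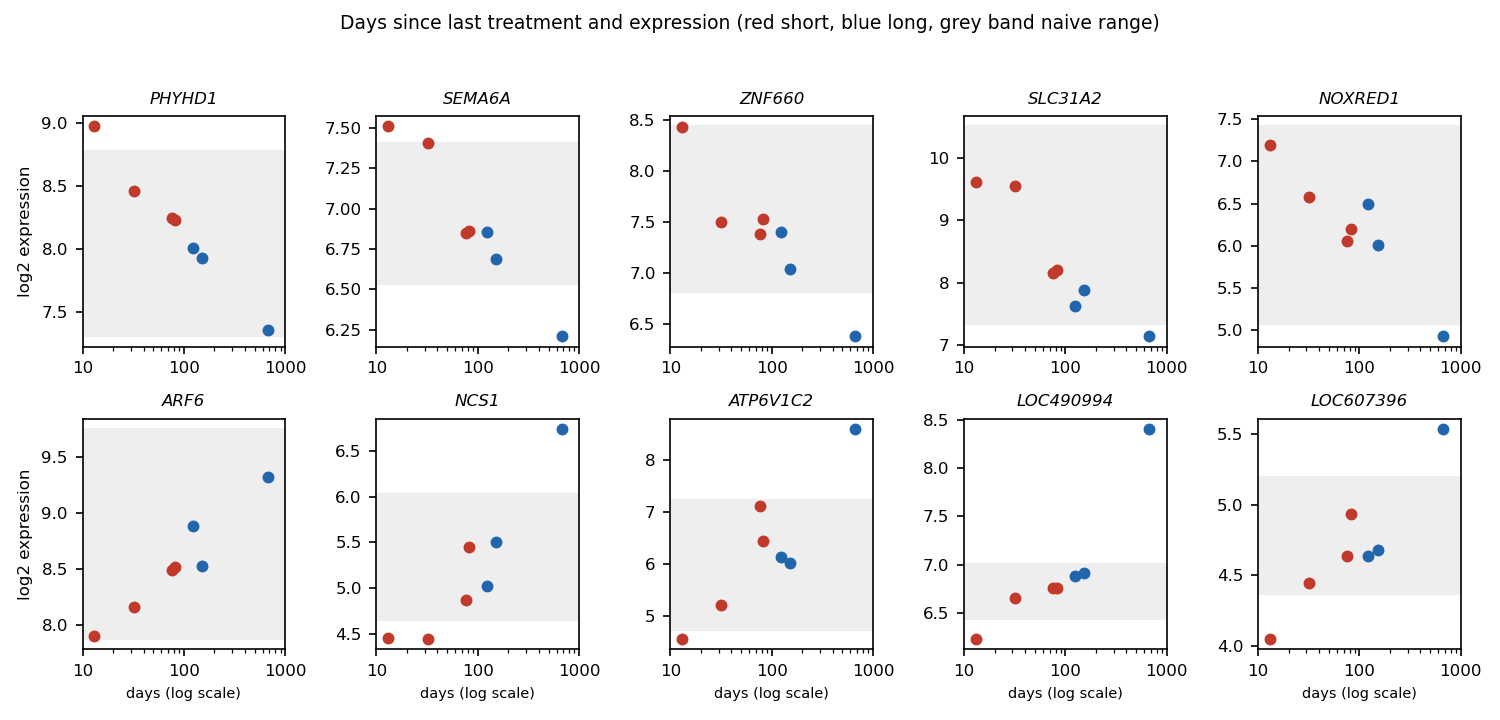
Log2 expression of the 5 genes of smallest p with a negative slope (upper row) and the 5 with a positive slope (lower row) against days since the last treatment (log axis), with short-interval arrays in red, long-interval arrays in blue and the naïve range as a grey band. PHYHD1 is in strict order, 8.97 at 13 days and 7.36 at 672 days, and sample 4 at 672 days lies outside the naïve band in 8 of the 10 panels.

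The groups were also compared for what the labels say of dogs and RNA. Age averaged 10.3 ± 1.62 years (SD, n = 4) in short-interval and 7.70 ± 1.18 years (SD, n = 3) in long-interval dogs (exact permutation test, two-sided p = 0.114). RNA integrity numbers were 9.48 ± 0.350 and 9.67 ± 0.321 (exact permutation test, two-sided p = 0.571). Array names in the paper's supplement gave a day for 5 of the 7 arrays, if their sample numbers are those of the labels. This match was assumed, and another sample number stood there with different days. Samples 9 and 3 shared 1 day, and samples 24, 18 and 4 the other. Within a day the intervals could thus be compared only as samples 24 and 18 against sample 4, the arrays that stood apart. In a fit with the day as a block CHN2 differed by −2.98, CYP3A26 by −4.45, TUBB2A by −1.48, MEIS2 by −0.97, FGD4 by −0.47, RAB39A by 1.02, RUBCNL by 2.84 and ELOVL4 by −3.68. With age as a covariate CHN2 differed by −3.23, CYP3A26 by −5.81, TUBB2A by −1.08, MEIS2 by −1.68 and FGD4 by −1.18.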

How the data were processed

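Values deposited by the authors are log2 expression values from RMA, run in Affymetrix's Expression Console, 1 per probeset and array (2.20 to 15.49, array medians 6.85 to 6.97). RMA gives all arrays a common distribution and compresses changes of dim probesets. The version of that program is not given in these sources. No column of sample values was left unused.

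Groups came from the labelled days since last treatment, divided at 100. Limma 3.58.1 in R 4.3.3 compared short minus long within a fit of 23 DLBCL arrays in 3 groups, with Benjamini-Hochberg adjustment over 43035 probesets and a threshold of 0.05. A second limma fit used log2 days in 7 arrays. P-values measure the spread between dogs. Of the probesets 29264 had 1 symbol, 439 had several and 13332 were unnamed here, and the brightest probeset on average stood for each gene. Scores, age and RNA integrity were compared by exact permutation over 35 splits. Named genes were the 10 in each direction without overlap and with at least a 2-fold difference and a mean of 5, ranked by p where none was called, up to 4 members of smallest p of each of 33 lists, all drug targets and glucocorticoid genes, and 5 trend genes in each direction. Further genes were named after their values were seen. The groups and lists were chosen with earlier results of these data known. The lists were described by counts and medians, without a test. The fits were tested on simulated data. Alternatives were other sets of arrays, normalizations, weights, a filter, covariates and leaving out each relapsed array. Python 3.11.15, numpy 2.4.6, scipy 1.17.1, pandas 2.3.3 and matplotlib 3.10.9 served for the rest.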

Additional observations from a re-analysis of the deposited data

Results flagged for a closer look

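Sample 18 was far from the other 3 short-interval arrays in 2 of 58 values examined for a single distant array. Its mean of 25 skin and hair follicle genes was 5.67, against 5.06, 5.13 and 5.09 in samples 24, 9 and 3, and its score on the second principal component was 72.7, against 6.50 in sample 9, 11.7 in sample 3 and 14 in sample 24. By chance about 1 in 20 such groups would be marked.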

How the results depend on the processing

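The comparison of intervals gave 0 calls under all alternatives run, also at a fold over 2 and when each of the 7 relapsed arrays was left out in turn (0 to 0 probesets). The lowest adjusted p of any of these fits was 0.118, without sample 12, and 0.139 in the fit with the array day as a block. Untransformed days, in place of their logarithm, gave 138 called probesets, 127 with a positive and 11 with a negative slope. All 127 were highest and all 11 lowest in sample 4, the array at 672 days, and 13 of the 69 genes among them were skin and hair follicle genes. Without sample 4 this fit gave 0 calls. On the log2 scale leaving out each array gave 0 to 0 calls.

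The difference on the first principal component was 0.659 to 35.8 when each relapsed array was left out, and on the second −10.1 to 20.5. The second was −10.1 without sample 18 and −18.2 on the components of the 7 arrays alone, in place of 13.9. Of the 36 list medians, 16 kept their sign when each array was left out. No paired analysis was possible because the groups compared share no sample numbers and come from different dogs. Groups of 4 and 3 arrays, and signals near background for CYP3A26 at short intervals, limit the precision.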

Other observations

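In 1 or 2 relapsed tumours some genes, named here after their values were seen, lay far above the other relapsed tumours and all naïve tumours. PRAME, a cancer-testis antigen, was at 9.43 in sample 18 of the short-interval group and at 10.53 in sample 13 of the long-interval group, against 5.34 to 5.73 in the other relapsed tumours and 5.03 to 5.95 in naïve tumours. TDRD1, a tudor protein of germ cells, was at 9.18 in sample 9 and at 3.99 to 4.68 in the other 6, and NEUROD6, a neuronal transcription factor, at 8.63 in the same tumour and 4.36 to 4.86 elsewhere. GAD1, which makes the transmitter GABA, was at 10.90 in sample 3 alone, with 4.38 to 5.98 in the other relapsed tumours. In sample 18 IGF2, a growth factor, was at 12.04 against 6.17 to 7.13, and CEL, a lipase of the pancreas, at 10.41 against 4.83 to 5.74.

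Sample 12, taken 152 days after treatment, and naïve sample 11 came from 1 dog and correlated at 0.991, above the 0.954 to 0.986 of sample 12 with the other DLBCL arrays and the highest of all DLBCL pairs. With 1 array at each time the values have no replicate. The relapsed sample stood beside its own naïve sample at 11.42 against 11.13 for CHN2, 8.38 against 7.17 for CYP3A26, 12.00 against 11.12 for MEIS2, 13.30 against 13.10 for TUBB2A and 9.11 against 9.09 for FGD4. RAB39A was at 4.44 in the relapsed sample against 4.78 in the naïve sample.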
